A study of Mus musculus with 47 samples.

Results

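The genes described here encode 7 subunits of the GABA-A receptor, namely the alpha subunits Gabra2, Gabra3, Gabra4 and Gabra5, the beta subunits Gabrb1 and Gabrb2 and the delta subunit Gabrd. Each was read from every probeset, the set of short oligonucleotides with which the array measures a transcript, whose annotation names only 1 of these symbols. This gave 21 of 45037 probesets and 7 of 18193 genes. Gabra2 and Gabrb2 had 5 probesets each, Gabrb1 had 4, Gabra3, Gabra4 and Gabrd had 2 each, and Gabra5 had 1. Medial prefrontal cortex (PFC) was taken from adult male C57BL/6J mice, 1 mouse per array, and the 47 arrays fall into 8 groups. Mice of the chronic intermittent ethanol (CIE) groups breathed air with 10 to 13 mg/l of ethanol for 16 h a day on 4 days and then went without ethanol for 7 days, over 4 cycles. Each cycle began with an injection of ethanol (1.6 g/kg) and of pyrazole (1 mmol/kg), which slows ethanol breakdown. Air controls (Ctrl) were injected with saline in place of ethanol and breathed air alone in control chambers. They were given pyrazole as well and were handled similarly. Pyrazole and handling were thus common to all mice, whereas the chamber went with the treatment. Tissue was collected at 0h, 8h, 72h or 7d from the end of vapor or air, with 6 CIE and 6 Ctrl mice at each time except for 5 CIE mice at 8h.

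GABA-A receptors are chloride channels built of several subunits around a pore, and they carry most fast inhibition in cortex. The alpha subunit sets much of the drug sensitivity and placement of the receptor. Receptors with a gamma subunit gather at synapses, whereas those with the delta subunit, commonly beside the alpha-4 subunit in forebrain, lie outside synapses and pass a tonic current. Ethanol and neurosteroids act on these receptors, and C57BL/6J mice carry an intronic deletion in Gabra2 that is known to lower its mRNA in brain.

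The array values are log2 RMA intensities, so a difference of 1 is a doubling. A probeset's brightness depends on its oligonucleotides, and levels of different probesets are not ranked against each other. Array concordance, taken as an array's average correlation with all others, had a median of 0.992 and a range of 0.967 to 0.994, and was lowest for mouse 15 of CIE 8h (0.967), mouse 17 of CIE 0h (0.985) and mouse 3 of CIE 72h (0.986). The mean of 8 general neuronal markers lay between 13.0 and 13.3 in every CIE 0h and Ctrl 0h mouse. Striatal neurons lie next to the dissected cortex. The mean of 13 of their markers was 8.29 to 10.2 in CIE 0h mice and 8.00 to 8.46 in Ctrl 0h mice. All 13 markers were higher in CIE at 0h by a median of 0.79, none called and 9 at an unadjusted p of at most 0.05 by limma. High striatal means also occurred at other times and in Ctrl mice. The highest mean at 8h, 72h and 7d was 8.74, 9.81 and 9.70 in CIE mice. In Ctrl mice it was 8.48, 8.91 and 9.53. The 8h arrays came from 2 repeat groups, with 3 CIE and 3 Ctrl mice in repeat group 1 and 2 CIE and 3 Ctrl mice in repeat group 2, and all other arrays belonged to repeat group 1.

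Gabra2 and Gabra4 lie on chromosome 5 in 1 cluster of receptor genes, and their promoters are shown because the only calls among the members fell on these genes. In GRCm38.p6, Gabra2 spans chr5:70958392-71095849, Gabra4 spans chr5:71569734-71658308 on the minus strand, and Gabrb1 spans chr5:71657921-72149572 on the plus strand, so Gabra4 and Gabrb1 start head to head and overlap by 388 bases. The RefSeq sequences below are the 250 bases before each start, printed 5′ to 3′ along the gene's minus strand, at chr5:71095850-71096099 for Gabra2 and at chr5:71658309-71658558 for Gabra4. Capitals mark the GC box, the letters GGGCGG on either strand, a motif recognised by Sp1-type factors.
Gabra2: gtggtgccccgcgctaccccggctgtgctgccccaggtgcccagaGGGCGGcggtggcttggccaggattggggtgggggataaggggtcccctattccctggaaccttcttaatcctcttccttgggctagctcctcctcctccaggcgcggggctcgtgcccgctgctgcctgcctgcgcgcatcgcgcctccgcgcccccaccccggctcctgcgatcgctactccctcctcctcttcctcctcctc
Gabra4: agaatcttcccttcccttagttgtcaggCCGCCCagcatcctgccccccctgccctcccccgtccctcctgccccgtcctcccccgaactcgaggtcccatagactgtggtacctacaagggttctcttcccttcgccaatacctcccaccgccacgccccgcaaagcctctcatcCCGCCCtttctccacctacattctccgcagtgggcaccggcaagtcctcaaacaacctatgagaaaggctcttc
The Gabra2 stretch was 70% G or C with 1 GC box, and the Gabra4 stretch 61.2% with 2. Promoter windows of 300 bases, which take in 50 bases past the start, were held for 6 of the 7 genes (10 windows, several genes having more than 1 start), and the median of all 32851 windows was 52.7% G or C. A GC box stood in 35.7% of all windows, and among the members in those of Gabra2, Gabra4 and 1 of the 3 of Gabrb2. The cyclic AMP response element TGACGTCA (1.79% of all windows) and the EGR letters GCGTGGGCG (0.612%) were in none of the 10 windows. The shorter TGACG, which is contained in TGACGTCA, was in 20.8% of all windows and in 1 of Gabrb2, and TATAAA was in 13.6% of all windows, in 1 of Gabrb2 and in both of Gabra3. All motifs were searched on both strands, and a match is a description of the letters alone.

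Few member probesets differed between CIE and Ctrl mice. At 0h, 1 of 21 was called (4.76%), where 7.28% of all 45037 probesets were. No member was called at 8h, 72h or 7d, where 3.39%, 0.528% and 0.948% of all probesets were called. With 21 probesets, such counts do not set the members apart from the array. By limma's unadjusted p of at most 0.05 the member counts were 5, 4, 1 and 3 at 0h, 8h, 72h and 7d, against 28.6%, 28.1%, 14.3% and 17.5% of all probesets. The median of the 21 differences was -0.01 at 0h, 0.03 at 8h, 0.05 at 72h and -0.002 at 7d, and the median of their sizes was 0.03, 0.10, 0.06 and 0.09, beside 0.12, 0.13, 0.08 and 0.09 over all probesets. The CIE and Ctrl groups did not overlap in 1 member at 0h, 8h and 7d each and in 0 at 72h, against 7.01%, 6.37%, 3.35% and 2.08% of all probesets. The F test over the 4 times called none of the members by limma (13.6% of all probesets), and their smallest adjusted p values there were 0.0107 for Gabrb2 1428205_x_at, 0.0119 for Gabra2 1443865_at and 0.0123 for Gabra4 1433707_at.

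**Figure D1:**
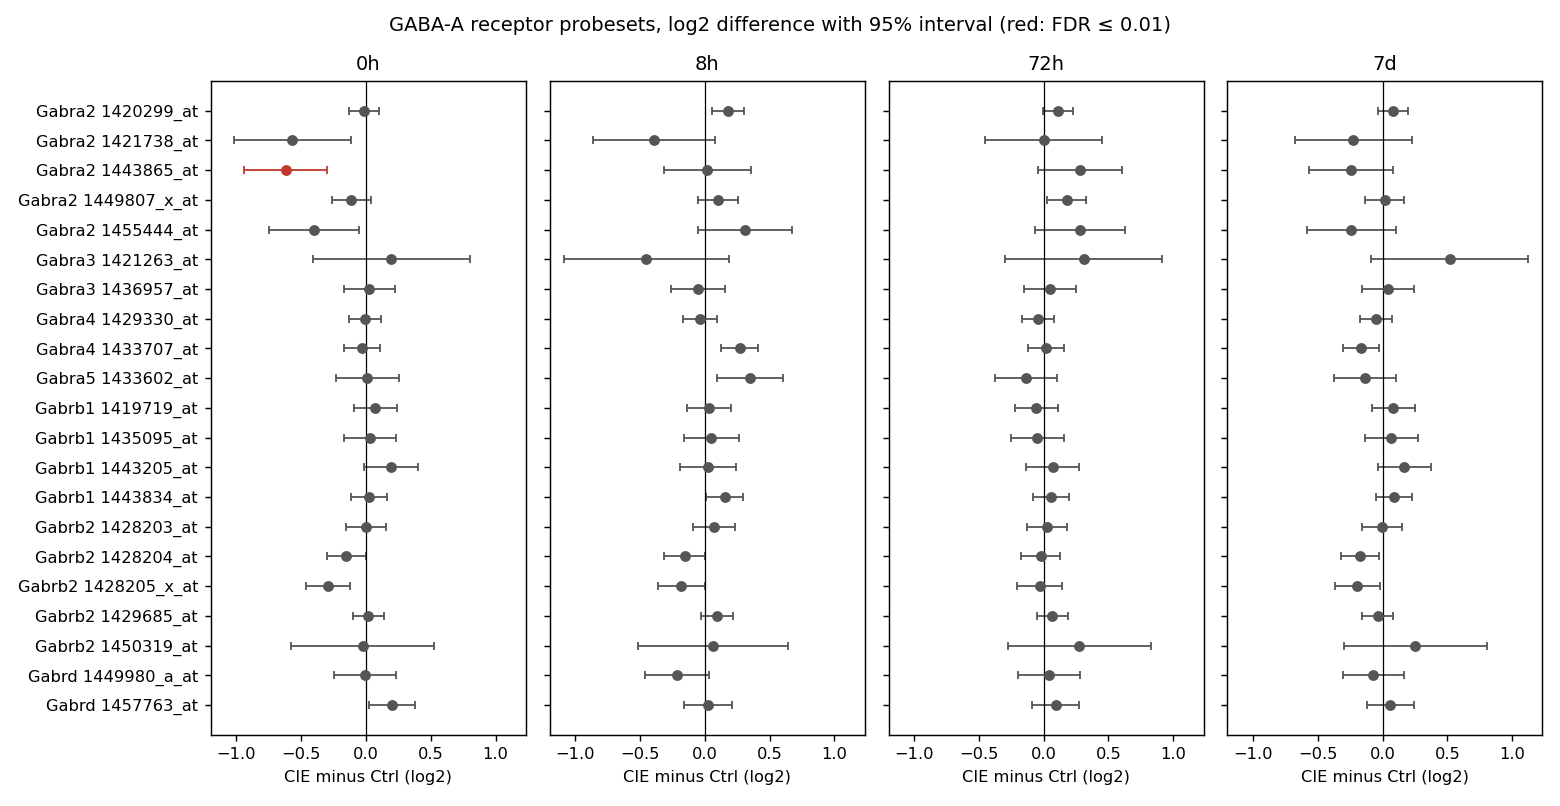
CIE minus Ctrl difference (horizontal axes, log2) of each of the 21 probesets (vertical axis) at 0h, 8h, 72h and 7d, with 95% intervals from limma. The called difference, Gabra2 1443865_at at 0h (-0.62), is red and all others are grey.

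The question at 0h is what the intoxicated PFC expressed right after the last vapor session. Gabra2, whose alpha-2 subunit is common at synapses onto the axon start of pyramidal cells, was the member with a call. Its probeset 1443865_at read 7.03, 7.77, 7.32, 7.26, 6.82 and 7.46 in CIE mice 5, 11, 17, 43, 67 and 72. In the Ctrl 0h mice its lowest, median and highest values were 7.65, 7.81 and 8.32. Every CIE mouse lay below the Ctrl mean, and mouse 11 alone lay inside the Ctrl range. The probeset fell by 0.62 (SE 0.16, 95% interval -0.94 to -0.30, adjusted p = 0.00595 by limma), to 7.28 ± 0.33 in CIE against 7.90 ± 0.26 in Ctrl (SD, n = 6 each), a ratio of 0.651. In bulk tissue fewer cells of a type and less RNA per cell cannot be told apart. The call did not hold with the 0h arrays alone (adjusted p = 0.0202), with the striatal marker mean as a term (-0.58, adjusted p = 0.0203), or without any one of CIE 0h mice 5, 43 and 67 or Ctrl 0h mice 2, 48 and 56 (adjusted p = 0.0103 to 0.0248), while the difference stayed between -0.72 and -0.53 over all 12 omissions of 1 array.

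The other probesets of Gabra2 at 0h gave a mixed picture. The leading one, 1421738_at, had a lowest, median and highest value of 7.15, 7.95 and 8.65 in CIE mice, against 8.09, 8.34 and 9.20 in Ctrl mice. The groups overlapped, 5 of 6 CIE mice were below the Ctrl mean, and the difference of -0.57 (95% interval -1.02 to -0.12) had an adjusted p of 0.0776. Probeset 1455444_at ran over 7.23, 7.58 and 7.79 in CIE mice, against 7.59, 7.96 and 8.38 in Ctrl mice, with 6 of 6 CIE mice below the Ctrl mean and a difference of -0.40 (95% interval -0.74 to -0.05, adjusted p = 0.109). The remaining pair, 1420299_at and 1449807_x_at, which come from 1 source record, averaged 3.69 and 3.81 over all arrays, near the low end of the array's range, and differed by -0.01 and -0.11. The 3 brighter probesets were all lower in CIE, by 0.40 to 0.62, and 1 of them was called.

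After 0h no Gabra2 probeset was called. The dim probeset 1420299_at came nearest at 8h, with 3.71, 3.84, 3.80, 3.70 and 3.94 in CIE mice 15, 23, 40, 51 and 69, against a lowest, median and highest of 3.54, 3.61 and 3.70 in Ctrl mice. Its difference was 0.18 (95% interval 0.06 to 0.30, 5 of 5 CIE mice above the Ctrl mean, adjusted p = 0.0446), the groups overlapped, and it passed the threshold with array weights alone among the alternatives (0.20, adjusted p = 0.00446; over all alternatives 0.00446 to 0.117). Probeset 1443865_at, called at 0h, read 7.40, 8.14, 8.21, 7.48 and 8.05 in CIE 8h mice 15, 23, 40, 51 and 69, against a lowest, median and highest of 7.37, 7.91 and 8.14 in Ctrl 8h mice. Its difference was 0.02 at 8h (95% interval -0.32 to 0.36), 0.28 at 72h (-0.04 to 0.60, 6 of 6 CIE mice above the Ctrl mean) and -0.24 at 7d (-0.56 to 0.08). The change of the ethanol difference between 0h and 72h was 0.90 (SE 0.22, adjusted p = 0.0117), not past the threshold. The leading probeset 1421738_at at 8h differed by -0.39 (adjusted p = 0.270), made up of -0.02 in repeat group 1 and -0.996 in repeat group 2, and 1455444_at by 0.31 (adjusted p = 0.252), made up of -0.16 and 0.91. The deviations of these 2 probesets from their group means had r = -0.03 over the 47 arrays, and those of 1443865_at had r = 0.52 with 1421738_at and 0.65 with 1455444_at.

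**Figure D2:**
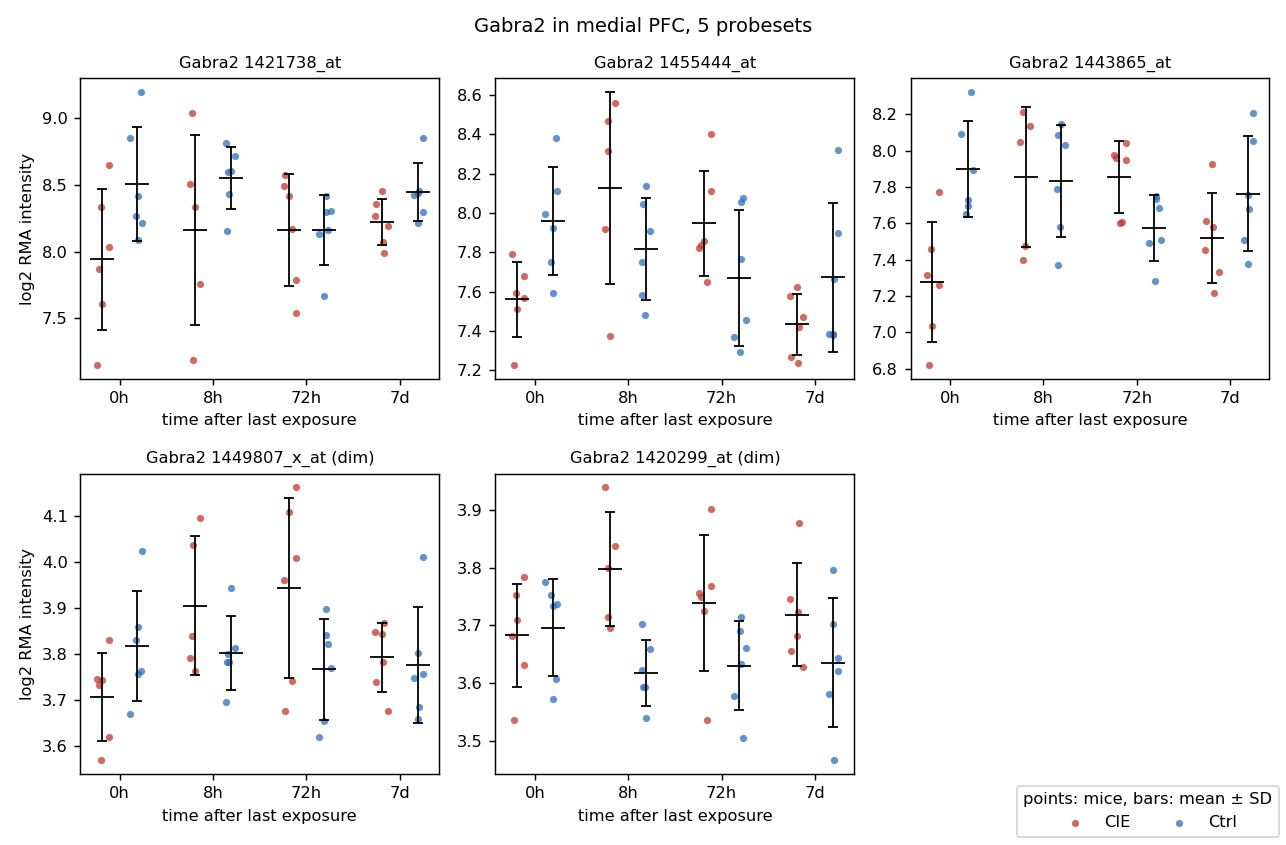
Level of the 5 Gabra2 probesets (vertical axes, log2 RMA intensity) of every mouse, by hours or days since the final session (horizontal axes), CIE red and Ctrl blue, with bars for mean and SD. At 0h the CIE mice of 1443865_at averaged 7.28 and the Ctrl mice 7.90, and the lower pair of panels shows the dim probesets.

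Gabra4 encodes the alpha-4 subunit, which pairs with delta in receptors outside synapses. The question at 8h is early withdrawal. Its leading probeset, 1433707_at, read 11.60, 11.55, 11.33, 11.30 and 11.25 in CIE 8h mice 15, 23, 40, 51 and 69. In Ctrl 8h mice the lowest, median and highest values were 11.05, 11.12 and 11.24. The groups did not overlap, although by less than 0.01 between CIE mouse 69 and the highest Ctrl mouse. The difference was 0.27 (SE 0.07, 95% interval 0.13 to 0.41), with an adjusted p of 0.0125, just outside the threshold. It was 0.20 in repeat group 1 and 0.39 in repeat group 2. It was called with repeat group as a term (0.29, adjusted p = 0.00339), with array weights (0.19, adjusted p = 0.00591) and with trended and robust moderation (adjusted p = 0.00981). Over all 10 alternatives these 3 gave a call, and adjusted p by limma ran from 0.00339 to 0.186. Of 11 omissions of 1 array 2 gave a call, those of CIE 8h mice 51 and 69 (adjusted p = 0.00924 and 0.00656). Over the 11 omissions adjusted p reached 0.0650, and the difference was 0.22 at its lowest.

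At 7d the same probeset lay the other way. The lowest, median and highest values were 11.01, 11.12 and 11.30 in CIE mice, against 11.18, 11.27 and 11.56 in Ctrl mice, and 6 of 6 CIE mice were below the Ctrl mean (-0.17, 95% interval -0.30 to -0.03, adjusted p = 0.172). At 0h and 72h the differences were -0.03 and 0.02. The ethanol difference at 7d minus that at 8h was -0.44 (SE 0.10, 95% interval -0.63 to -0.24, adjusted p = 0.00610 by limma), a call. It was the only call among the members over 6 pairs of times, in which 3.41% (8h minus 0h), 1.80% (72h minus 0h), 0.273% (7d minus 0h), 0.00222% (72h minus 8h), 1.80% (7d minus 8h) and 0% (7d minus 72h) of all probesets were called. It held under all 8 alternatives that refitted every time, among them removal of the 3 arrays of lowest concordance (adjusted p by limma 0.00124 to 0.00959). It no longer passed without any one of CIE 8h mice 15 and 23 or Ctrl 8h mice 66, 75 and 79. The same was true without any one of CIE 7d mice 27, 45 and 65 or Ctrl 7d mice 28 and 46. Adjusted p by limma was 0.0103 to 0.0146 in these fits. Over all 23 omissions the difference stayed between -0.48 and -0.39. The second Gabra4 probeset, 1429330_at, differed by -0.04 at 8h (95% interval -0.17 to 0.09) and by -0.05 at 7d (-0.18 to 0.07), and the 2 probesets' deviations had r = 0.14 over the 47 arrays. Over the same arrays the deviations of 1433707_at had r = -0.55 with array concordance, and CIE 8h mice 15 and 23, the highest here, had the lowest concordance of their group (0.967 and 0.988). The part of concordance in the result was not tested.

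Gabra5, whose alpha-5 subunit is best known from hippocampal receptors outside synapses, had 1 probeset, 1433602_at. In CIE 8h mice 15, 23, 40, 51 and 69 it read 10.14, 10.10, 9.51, 10.11 and 9.72, against a lowest, median and highest of 9.49, 9.56 and 9.66 in Ctrl 8h mice. Mice 15, 23, 51 and 69 lay above all Ctrl mice and mouse 40 lay among them. The difference was 0.35 (95% interval 0.10 to 0.60, adjusted p = 0.0622), 0.21 in repeat group 1 and 0.55 in repeat group 2. At 0h it was 0.01 (95% interval -0.23 to 0.25), at 72h -0.14 (-0.38 to 0.10) and at 7d -0.14 (-0.38 to 0.11).

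**Figure D3:**
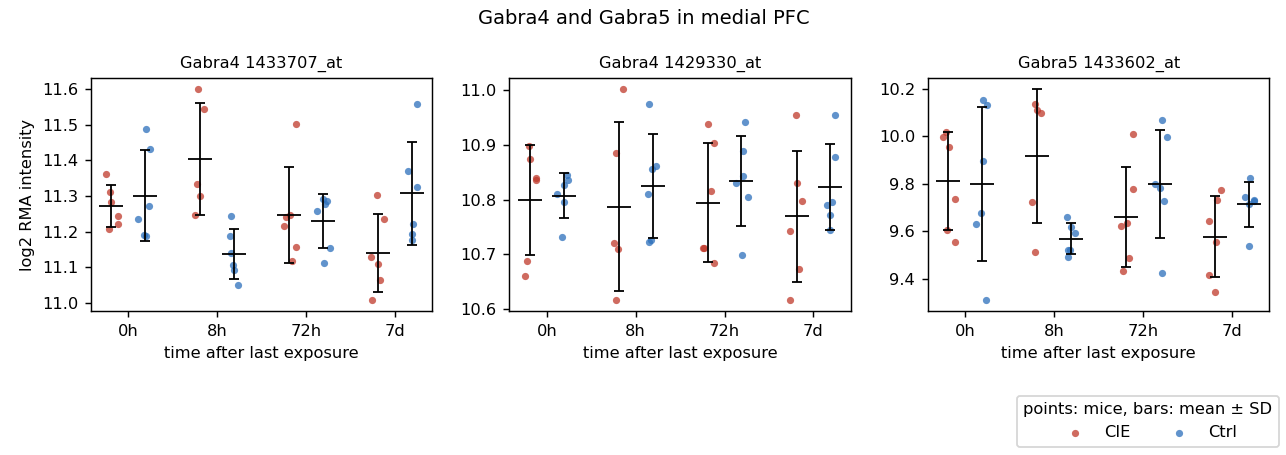
Level of the 2 Gabra4 probesets and the Gabra5 probeset (vertical axes, log2 RMA intensity) of every mouse, by hours or days since the final session (horizontal axes), CIE red and Ctrl blue, with bars for mean and SD. At 8h the 5 CIE mice of Gabra4 1433707_at sit between 11.25 and 11.60, and the Ctrl mice between 11.05 and 11.24.

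Gabra3, an X-linked gene whose alpha-3 subunit is found at synapses of deep cortical layers, showed no call. Its leading probeset 1436957_at averaged 11.4 ± 0.13 in CIE 0h and 11.3 ± 0.21 in Ctrl 0h mice (SD, n = 6 each). The differences at the 4 times lay between -0.05 and 0.05, and all 95% intervals lay between -0.26 and 0.25. The dimmer probeset 1421263_at, designed on a RefSeq mRNA, varied far more. Its lowest, median and highest values at 7d were 7.26, 7.47 and 7.73 in CIE mice, against 6.60, 7.05 and 7.19 in Ctrl mice, without overlap. The difference of 0.52 (95% interval -0.09 to 1.12) had an adjusted p of 0.382. At 8h it read 5.63 and 5.97 in CIE mice 15 and 23 of repeat group 2, and 7.91, 7.77 and 7.41 in CIE mice 40, 51 and 69 of repeat group 1, against 6.93 to 7.66 in Ctrl mice. The differences within repeat groups 1 and 2 were 0.29 and -1.57.

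Gabrb1 encodes the beta-1 subunit and Gabrb2 the beta-2 subunit, which is part of the most common receptor of adult brain. For Gabrb1 the leading probeset 1419719_at averaged 12.1 ± 0.14 in CIE 0h and 12.0 ± 0.12 in Ctrl 0h mice (SD, n = 6 each), and its differences at the 4 times lay between -0.06 and 0.08, with all 95% intervals between -0.22 and 0.25. Probesets 1435095_at and 1443205_at gave differences of -0.05 to 0.07 and of 0.03 to 0.19, the last at 0h with 6 of 6 CIE mice above the Ctrl mean (adjusted p = 0.205). These 3 probesets deviated together (r = 0.76 to 0.88 over 47 arrays). The deviations of 1435095_at and 1419719_at had r = 0.56 and 0.51 with the striatal marker mean. Probeset 1443834_at averaged 3.81, near the low end of the array's range, and had the smallest adjusted p of the gene, 0.143 at 8h. It was called at 8h with array weights (0.23, adjusted p = 0.00240) and under no other alternative.

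For Gabrb2 the leading probeset 1429685_at averaged 12.3 in every group except CIE 8h (12.4), CIE 7d (12.2) and Ctrl 7d (12.2), and its differences lay between -0.04 and 0.10, with all 95% intervals between -0.15 and 0.22. Probeset 1428205_x_at came close to a call. At 0h it read 11.63, 11.39, 11.67, 11.70, 11.57 and 11.70 in CIE mice 5, 11, 17, 43, 67 and 72, against a lowest, median and highest of 11.78, 11.89 and 12.03 in Ctrl mice. The groups did not overlap. The difference was -0.29 (SE 0.09, 95% interval -0.46 to -0.12, adjusted p = 0.0153). It was called with repeat group as a term (adjusted p = 0.00928), with array weights (-0.26, adjusted p = 0.00314) and without the 3 arrays of lowest concordance (-0.30, adjusted p = 0.00187), whereas with the striatal marker mean as a term it was -0.19 (adjusted p = 0.118). Its deviations had r = -0.48 with that mean.

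Probesets 1428203_at and 1428204_at come from the same source record as 1428205_x_at. At 0h they differed by 0.00 and -0.15, against -0.29 for 1428205_x_at. The deviations of 1428204_at and 1428205_x_at had r = 0.94, and both had r of 0.21 or less with 1428203_at. At 7d both were lower in 6 of 6 CIE mice relative to the Ctrl mean (-0.17 and -0.19, adjusted p = 0.196 and 0.210) and 1428203_at differed by -0.002. The suffix of 1428205_x_at marks oligonucleotides that may also bind other transcripts. The RefSeq-based probeset 1450319_at was dimmer and more variable, with differences of -0.02 to 0.28 and 95% intervals between -0.57 and 0.83.

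**Figure D4:**
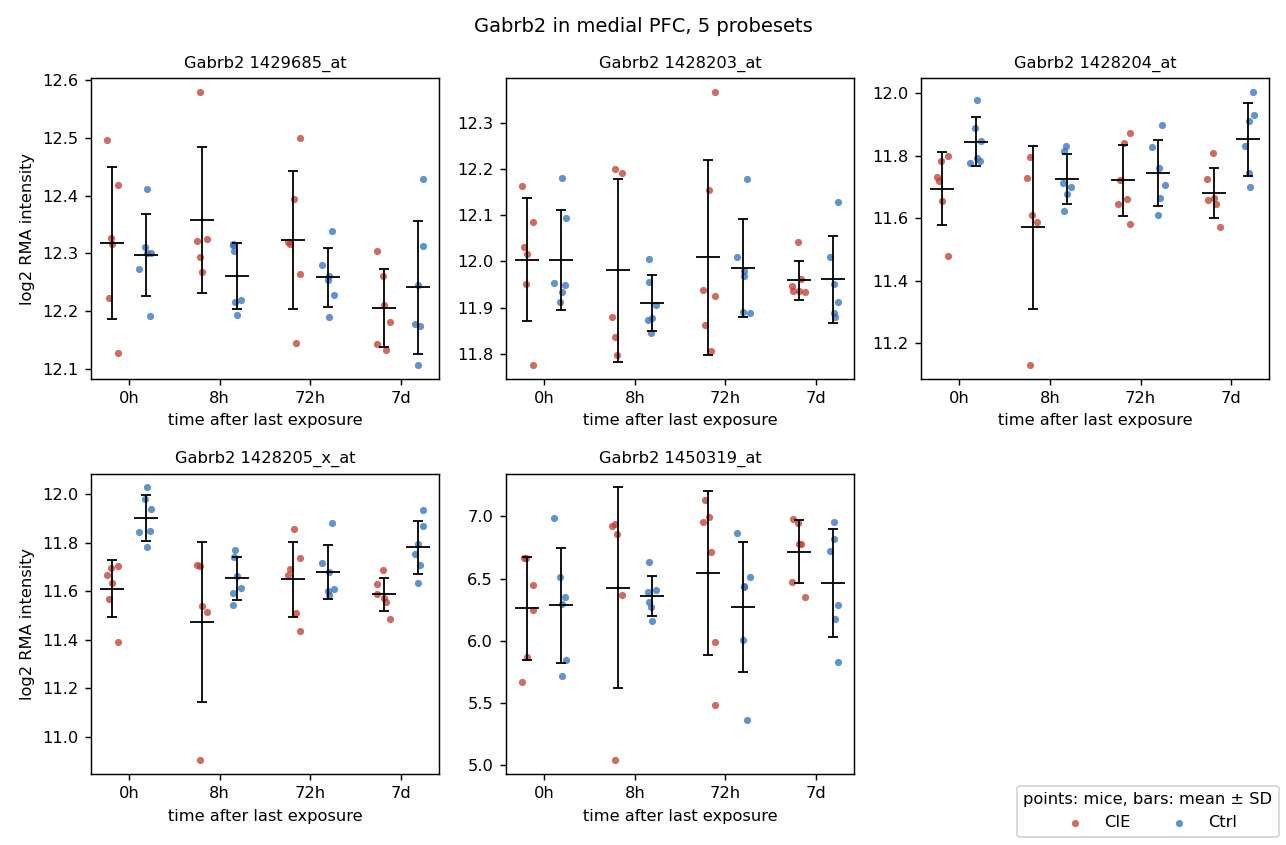
Level of the 5 Gabrb2 probesets (vertical axes, log2 RMA intensity) of every mouse, by hours or days since the final session (horizontal axes), CIE red and Ctrl blue, with bars for mean and SD. At 0h the CIE mice of 1428205_x_at sit between 11.39 and 11.70 and the Ctrl mice between 11.78 and 12.03, and 1429685_at shows no such gap.

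Gabrd encodes the delta subunit of tonic receptors. Its leading probeset 1449980_a_at averaged 9.84 ± 0.17 in CIE and 9.84 ± 0.26 in Ctrl mice at 0h (SD, n = 6 each). At 8h it read lower in 4 of 5 CIE mice than the Ctrl mean (-0.21, 95% interval -0.46 to 0.03, adjusted p = 0.251), and the differences at 72h and 7d were 0.04 and -0.07. The dim probeset 1457763_at was higher in 6 of 6 CIE mice at 0h, with a lowest, median and highest of 4.42, 4.57 and 4.64, against 4.22, 4.36 and 4.43 in Ctrl mice (0.20, adjusted p = 0.121). None of the 4 differences of Gabrd at either probeset was called.

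The deviations of several member probesets rose or fell with array concordance, as did those of many other probesets. Deviations from the group means had an absolute r of at least 0.5 with concordance in 9 of 21 members over 47 arrays, and in 27.6% of all probesets. Without mouse 15 of CIE 8h, the array of lowest concordance, this held for 5 of 21 members, near the share of 21.1% of all probesets. The highest were Gabrb2 1450319_at (r = 0.72), Gabra3 1421263_at (0.71) and Gabra2 1421738_at (0.64), all designed on RefSeq mRNAs. Without that array they were 0.66, 0.72 and 0.59. The other members designed on RefSeq mRNAs were Gabrd 1449980_a_at (r = 0.51) and Gabrb1 1419719_at (r = -0.37) over all arrays. Gabra2 1443865_at, the called probeset, had r = 0.15 with concordance and -0.09 with the striatal marker mean. For Gabrb2 1428205_x_at the value was 0.57 with all arrays and 0.15 without mouse 15 of CIE 8h.

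**Figure D5:**
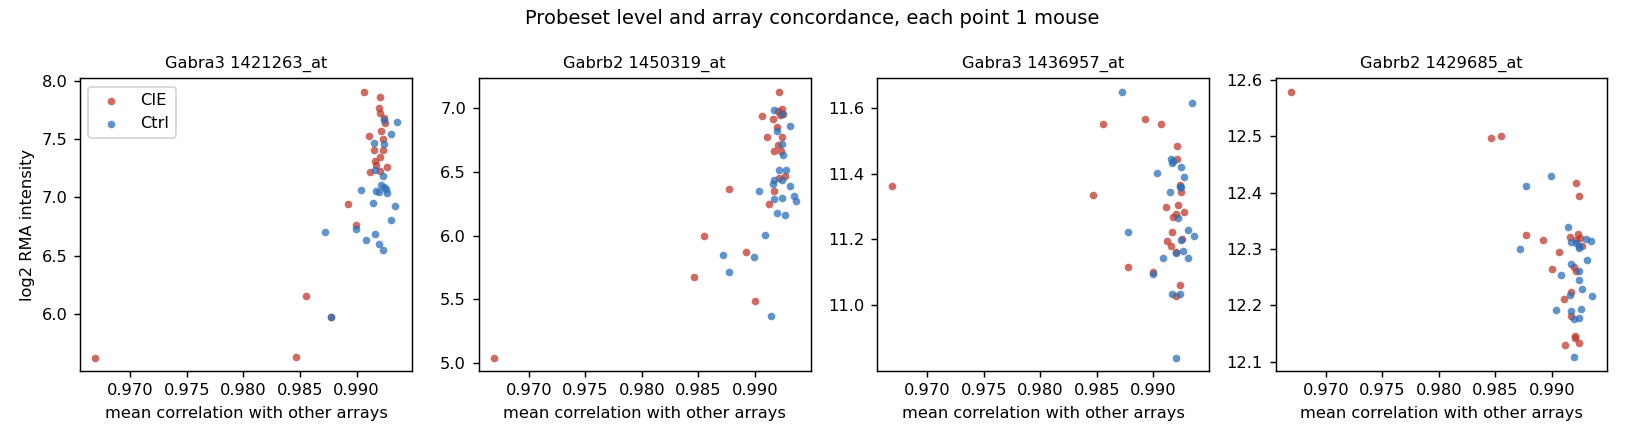
Level (vertical axes, log2 RMA intensity) of the Gabra3 and Gabrb2 RefSeq-based probesets and of the leading probesets of the same genes against array concordance (horizontal axes, mean correlation with the other arrays), each point 1 mouse, CIE red and Ctrl blue. The leftmost array, mouse 15 of CIE 8h at 0.967, read 5.63 on Gabra3 1421263_at and 12.58 on Gabrb2 1429685_at.

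Across mice some probesets of different subunits deviated together and others apart. Over the 47 arrays the deviations of Gabra5 1433602_at and Gabrd 1449980_a_at had r = -0.78, and those of Gabrb1 1419719_at and Gabrd 1449980_a_at had r = -0.71. Gabra5 had r = 0.61 with Gabrb1 1419719_at, and Gabra4 1433707_at had r = 0.66 with Gabrb2 1429685_at. Other probesets of these genes gave a mixed picture. Gabrb1 1435095_at had r = -0.67 with Gabrd 1449980_a_at, and Gabrb2 1428203_at had r = 0.75 with Gabra4 1433707_at. Gabra4 1429330_at had r = -0.03 with Gabrb2 1429685_at, and the dim Gabrd 1457763_at had r = 0.06 with Gabra5. These points share arrays, normalization and concordance. Outside the family, the genes most like each leading probeset over the same 47 arrays were Epha4, a receptor of axon guidance, Rhbdd2 and Dgcr6 for Gabra2 (r = 0.88, 0.87 and 0.86), Trappc3, Btbd11 and Dpp6, a potassium channel partner, for Gabra3 (0.73, 0.72 and 0.72), and Plaat1, Ipo5, an import receptor of the nucleus, and Pnma2 for Gabra4 (0.84, 0.83 and 0.82). For Gabra5 they were Gmps, an enzyme of guanine nucleotide synthesis, 2010315B03Rik and Nalcn, a sodium leak channel (0.85, 0.83 and 0.79), and for Gabrb1 Zkscan16, Csmd3 and Ccdc112 (0.85, 0.83 and 0.81). For Gabrb2 they were the chaperone Hspa4l, Entpd7 and Agtpbp1 (0.88, 0.83 and 0.82), and for Gabrd the phospholipase Plcd3, the tubulin tyrosine ligase Ttl and Asphd1 (0.83, 0.81 and 0.81).

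The neighbours of the members on the chromosome were measured too. Gabrg1, beside Gabra2, differed by 0.00 at 0h (adjusted p = 0.989) and by -0.26 at 7d (adjusted p = 0.123), and Cox7b2, between Gabra2 and Gabra4, by 0.28 at 0h (adjusted p = 0.222). Gabrb1, which overlaps Gabra4 head to head, differed by 0.03 at 8h, when Gabra4 1433707_at differed by 0.27. Gabrq, the theta subunit gene beside Gabra3 on the X chromosome, fell by 0.29 at 0h (adjusted p = 0.00529), at a mean level of 4.25 that is near the low end of the array's range, and Gabre, on the other side, differed by -0.07. Atp10a, a phospholipid flippase gene beside Gabra5, differed by 0.75 at 8h (adjusted p = 0.0120), and Gabrg3, on the other side, by -0.33. Commd8, beside Gabrb1, differed by 0.16 at 0h (adjusted p = 0.0281), and the neighbours of Gabrb2 (Gabra6 and Atp10b) and Gabrd (Prkcz and 5830444B04Rik) had adjusted p values of 0.198 or more at every time.

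Other genes of GABA signalling were read from their leading probesets. Of 8 other GABA-A receptor subunit genes measured, 1 fell at 0h, Gabrq, and none rose or fell at 8h, 72h or 7d. The 5 further lists held no call at any time by limma. The leading-probeset background over all genes was 7.51% at 0h, 3.49% at 8h, 0.456% at 72h and 0.737% at 7d. At these shares lists of 5 to 22 genes hold few calls, so a lack of calls does not set them apart. An unadjusted p of at most 0.05 by limma was reached by 28.6% of all probesets at 0h and 28.1% at 8h. These lists were 22 genes of receptor anchoring and trafficking (8 at an unadjusted p of at most 0.05 at 8h), 6 of the chloride gradient (3 at 8h), 5 of the GABA-B receptor (2 at 0h), 7 of GABA synthesis and transport (0 at every time) and 8 of neurosteroid synthesis (2 at 0h). Their smallest p values belonged to Gabarapl2, a partner in receptor traffic and autophagy (-0.24 at 8h, adjusted p = 0.0139), Nsf, the membrane fusion ATPase (-0.15 at 0h, adjusted p = 0.0294), Stk39, a kinase of chloride transporters (-0.62 at 8h, adjusted p = 0.0496), Car2, a carbonic anhydrase (-0.32 at 8h, adjusted p = 0.103), Kctd16, an auxiliary GABA-B subunit (-0.40 at 0h, adjusted p = 0.0130) and Kcnj6, a potassium channel opened by the GABA-B receptor (-0.30 at 72h, adjusted p = 0.132). In the last lists they were Slc32a1, the vesicular GABA transporter (-0.18 at 7d, adjusted p = 0.307), Aldh5a1, which breaks down GABA (0.09 at 72h, adjusted p = 0.432), Fdx1, the electron donor of steroid synthesis (-0.14 at 0h, adjusted p = 0.0712) and Hsd17b6 (-0.25 at 8h, adjusted p = 0.145). Among markers of PFC cell types, 1 of 7 excitatory neuron genes was called at 0h (Neurod6, -0.38) with a list median of 0.03. At 8h the calls were 1 of 8 interneuron genes (Sst, -0.29; list median -0.05) and 1 of 7 microglial genes (P2ry12, -0.57; list median 0.10).

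In the Ctrl groups the members did not move with time past the threshold. The F test over the 4 Ctrl groups called 0 of 21 by limma, where 1.72% of all probesets were called, and the smallest adjusted p was 0.152, for Gabrb2 1428205_x_at, the single member with an unadjusted p of at most 0.05. Its Ctrl mean was lower by 0.25 at 8h, by 0.22 at 72h and by 0.12 at 7d than at 0h.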

How the data were processed

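Total RNA from medial PFC of single mice was hybridised to Affymetrix Mouse Genome 430 2.0 arrays. The authors deposited log2 RMA (Robust Multi-array Average) values. Per the study's methods these were background corrected and quantile normalized within hybridisation batch with affy, quantile normalized across arrays, and adjusted for repeat group with ComBat. Versions were not given in the sources used here. Such steps put all arrays on 1 scale (array medians 6.39 to 6.42), so a shift of total RNA cannot be seen, and an adjustment made before the test lowers the spread it measures.

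Groups came from the sample labels. Every deposited column was used. Of 45037 probesets, 34945 carried 1 gene symbol, 932 several and 9160 none listed. Of the symbols, 34741 were updated through their Entrez number. All 47 arrays entered a linear model in limma 3.58.1 (R 4.3.3) with the 8 group means as coefficients, and CIE minus Ctrl was tested at each time, with Benjamini-Hochberg adjustment over all 45037 probesets and a call at an adjusted p (FDR) of at most 0.01. An F test covered the 4 contrasts together, and 6 contrasts compared the ethanol difference between pairs of times. The number of arrays limits the precision. In data simulated for the 0h comparison over 45037 probesets, with 200 changed at each size, log2 changes of 0.25, 0.5 and 1 were called for 14.5%, 68% and 95.5% of them. The data held 3277 calls at 0h, and the simulated spread was independent between probesets. These shares therefore do not carry over directly to the data. Two-sided p-values weigh a difference between group means against the spread between mice. That spread was pooled over the 8 groups, moderated by limma over all probesets and taken after the ComBat adjustment.

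The alternatives tried were FDR 0.05, the leading probesets alone, each time point alone, repeat group as a term, repeat group 1 alone at 8h, array weights, repeated quantile normalization, median centring, removal of probesets with a mean under 6, trended and robust moderation, the mean of striatal markers as a term, and omission of each array. Removal of the 3 arrays of lowest mean correlation, and the use of all settings for the F test, the differences between times, the Ctrl groups over time and the count of genes, were chosen after seeing the data. The members and gene lists were chosen with earlier results of these data known. All member probesets are accounted for. A gene's leading probeset is its brightest, with suffixes _x_at and then _s_at last. From each pathway list up to 4 called genes of smallest p, or 2 where none was called, are named, for likeness the 3 genes of highest Pearson r with each leading probeset, and on the chromosome the nearest measured gene on each side. Promoter sequences were taken from RefSeq (GRCm38.p6). Figures were drawn with matplotlib 3.10.9 (Python 3.11.15).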

Additional observations from a re-analysis of the deposited data

Results flagged for a closer look

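Of 168 groups of 5 or 6 mice tested, 11 held 1 mouse far from the others by Dixon's ratio, and chance gives about 1 in 20. Mouse 15 of CIE 8h, the array of lowest concordance, stood apart on 3 probesets, low on Gabrb1 1443834_at (3.55) and Gabrb2 1428205_x_at (10.91) and high on Gabrb2 1429685_at (12.58). Mouse 7 of CIE 7d was high on 3 Gabrb1 probesets, 1419719_at (12.37), 1435095_at (11.40) and 1443205_at (10.50), which deviate together. Mouse 17 of CIE 0h was low on Gabra3 1421263_at (5.63), and mouse 3 of CIE 72h was high on Gabra4 1433707_at (11.50), and these arrays had the next lowest concordance (0.985 and 0.986). Single mice also stood apart on Gabra2 1421738_at (mouse 18 of Ctrl 7d, 8.85), Gabrb1 1419719_at (mouse 43 of CIE 0h, 11.81) and Gabrb2 1428203_at (mouse 37 of CIE 7d, 12.04). The ethanol difference of Gabra4 1433707_at differed between 7d and 8h by -0.44 (adjusted p = 0.00610 by limma).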

How the results depend on the processing

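Over 769 single differences recomputed under 10 alternatives, 759 kept their side of the threshold, 2 lost the call and 8 gained one. Nearly all of these values were uncalled in the main fit, so the count of 759 was largely set in advance. Both lost calls were those of Gabra2 1443865_at at 0h, which kept its call under 7 of 9 alternatives. Among the 769 values 0 called and 41 uncalled ones changed sign. With FDR 0.05 the number of member probesets called was 2 at 0h and 2 at 8h, 4 by the F test and 3 for differences between times, from 3 genes. These counts with repeat group as a term were 2, 1, 3 and 2, from 3 genes, and with array weights 2, 3, 4 and 2, from 4 genes. Trended and robust moderation gave 1 at 8h and 2 by the F test, from 2 genes, and median centring gave 1 by the F test. The 0h arrays alone gave 0 at 0h, the striatal marker mean as a term gave 0 at 0h and 0 genes, and the leading probesets alone gave 0 genes. Without the 3 arrays of lowest concordance the counts were 2 at 0h and 1 by the F test, from 2 genes. Leaving out 1 array at a time gave 0 to 1 calls at 0h, 0 to 1 at 8h, 0 at 72h and 0 at 7d. The cause of these shifts was not tested. No paired analysis was possible because no mouse number occurs in more than 1 group. Dim probesets (Gabra2 1420299_at and 1449807_x_at, Gabrb1 1443834_at, Gabrd 1457763_at) lie near the array's floor, which compresses differences.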
